A study of Mus musculus with 6 samples.

Results

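Neutrophils were picked out of single-cell RNA sequencing of mouse dorsal skin in the imiquimod (IMQ) model of psoriasis-like inflammation, where they numbered 597 of the 50850 cells kept from 55201 deposited barcodes. A kept barcode had fewer than 100000 unique molecular identifiers (UMIs, each marking 1 captured transcript), fewer than 6500 detected genes and under 10% of UMIs from mitochondrial genes. A kept cell was called a neutrophil when it held at least 3 UMIs over Retnlg, G0s2, Cxcr2 and Csf3r and at least 50 UMIs per 10000 over S100a8 and S100a9. It also had to hold under 5 UMIs per 10000 over the complement genes C1qa, C1qb and C1qc of macrophages, under 20 over the basal keratins Krt5 and Krt14, and under 10 over the collagens Col1a2 and Col3a1. The members were thus chosen by the measured levels of these genes, whose levels in the neutrophils are a description with no test.

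There were 3 groups of 2 libraries, all from female C57BL/6 mice aged 8 to 10 weeks, and each library held the pooled dorsal skin of several animals. The Sham group was untreated. The IMQ group received 62.5 mg of 5% IMQ cream on shaved dorsal skin each day for 4 days. The IMQ+SHP099 group received the same cream and, by the oral route, SHP099 at 10 mg/kg each day for 4 days. Skin of the treated mice was taken 1 day after the last treatment. IMQ is an agonist of the RNA sensor TLR7, and SHP099 is an allosteric inhibitor of the tyrosine phosphatase SHP2, the product of Ptpn11. The question that the treated groups address is what inhibition of SHP2 does in inflamed skin.

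Neutrophils are short-lived phagocytes that mature in bone marrow, are held there and released through the receptors CXCR4 and CXCR2, and collect in the epidermis and upper dermis of psoriatic lesions. During maturation they fill granules in a fixed order. The primary granule holds myeloperoxidase and elastase, and the secondary granule lactoferrin (Ltf), cathelicidin (Camp) and the neutrophilic granule protein (Ngp). The tertiary granule holds the gelatinase MMP9. After arrival in tissue, they are a source of IL-1β and of the chemokines CXCL2 and CCL3, and the genes of these are classical targets of the transcription factor NF-κB.

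The libraries held 53913865 to 188283327 UMIs over all deposited barcodes. Their cell makeup differed within groups as well as between them. Cells above the keratin limit made up 56.2% and 15.3% of kept cells in the Sham replicates, 17.6% and 8.34% in the IMQ replicates, and 65.1% and 6.01% in the IMQ+SHP099 replicates. Replicate 1 of Sham and replicate 1 of IMQ+SHP099 therefore stood apart as keratinocyte-rich libraries, and every share of all cells moved with this. In all, 294 kept barcodes occurred in more than 1 library, but no barcode was a neutrophil in 2 of them.

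Neutrophils were more frequent in the IMQ libraries than in the others. They numbered 4 of 8584 and 9 of 8231 kept cells in the Sham replicates, which are shares of 0.0466% (95% exact binomial interval 0.0127 to 0.119) and 0.109% (0.05001 to 0.207). In the IMQ replicates they numbered 155 of 7672 and 330 of 10293 kept cells, shares of 2.02% (1.72 to 2.36) and 3.21% (2.87 to 3.56). In the IMQ+SHP099 replicates they numbered 11 of 8688 and 88 of 7382 kept cells, shares of 0.127% (0.0632 to 0.226) and 1.19% (0.957 to 1.47). The shares of the IMQ libraries lay above those of all 4 other libraries, and the IMQ+SHP099 libraries lay above the Sham libraries, although IMQ+SHP099 replicate 1 sat close to Sham replicate 2 with overlapping intervals. The intervals cover counting error within a library only.

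**Figure D1:**
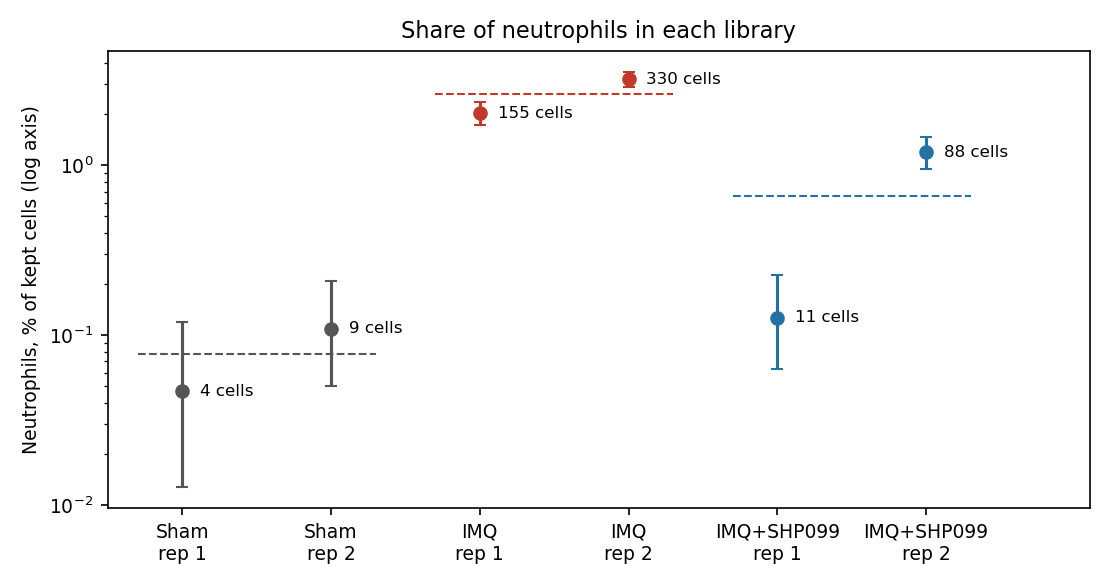
Share of neutrophils among kept cells (percent, log axis) in each of the 6 libraries; points are libraries and bars their 95% exact binomial intervals. The IMQ libraries sit at 2.02% and 3.21%, above the IMQ+SHP099 libraries at 0.127% and 1.19% and the Sham libraries at 0.0466% and 0.109%.

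By group, the share was 0.0780% ± 0.0444 (SD, n = 2) in Sham, 2.61% ± 0.838 (n = 2) in IMQ and 0.659% ± 0.753 (n = 2) in IMQ+SHP099. IMQ exceeded Sham by 2.54 percentage points, IMQ+SHP099 lay 1.95 points under IMQ (a difference of -1.95), and IMQ+SHP099 exceeded Sham by 0.581 points. Each of these 3 differences had a two-sided exact permutation p = 0.333 (Benjamini-Hochberg adjusted p = 0.333), which is the smallest that 2 libraries against 2 can give, so the design cannot reach 0.05. Within IMQ+SHP099, the SD was larger than the mean. Since the libraries differed in keratinocyte content, the share was also taken over cells under the keratin limit. It was then 0.107% and 0.129% in Sham, 2.45% and 3.50% in IMQ, against 0.365% and 1.27% in IMQ+SHP099, in the same order of groups. Of cells with a UMI for the leukocyte gene Ptprc (CD45), the neutrophils with such a UMI made up 0% and 0.634% in Sham, 8.77% and 22.2% in IMQ, against 0.921% and 8.24% in IMQ+SHP099. A smaller share of neutrophils cannot be told apart here from a larger share of other cells in the suspension.

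The neutrophils had a median of 4598 and 4404.5 UMIs per cell in the IMQ replicates and 2025 and 3160 in the IMQ+SHP099 replicates, against 1200 and 1290 in Sham. The median over all kept cells of a library was 5645 to 18263.5. Their median mitochondrial share was 0.236% to 0.665% by library, under the 1.24% to 3.33% of all kept cells. As a result they carried 0.831% and 1.48% of the UMIs of kept cells in the IMQ replicates, 0.0217% and 0.595% in IMQ+SHP099, and 0.00541% and 0.0138% in Sham.

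The label was set beside marker genes inside and outside the rule. Retnlg, a resistin-like gene of mouse neutrophils, was used by the rule, so its detection is a description and no check. It was present in 91.0% and 95.5% of the cells in the IMQ replicates and in 95.5% in IMQ+SHP099 replicate 2. It was present in only 36.4% of the cells in IMQ+SHP099 replicate 1, and in 25% and 55.6% in Sham. Ly6g, the surface antigen by which mouse neutrophils are usually defined and which the rule did not use, was at 380 and 481 counts per 1000000 neutrophil UMIs (CPM) in the IMQ replicates. It was at 453 CPM in IMQ+SHP099 replicate 2, at 0 in IMQ+SHP099 replicate 1 and Sham replicate 1, and at 84.3 in Sham replicate 2, where this was 1 UMI. Ptprc was found in 136 of 155 and 303 of 330 cells in IMQ, in 5 of 11 and 77 of 88 in IMQ+SHP099, and in 0 of 4 and 9 of 9 in Sham. The 4 cells of Sham replicate 1 held 3 UMIs of Retnlg, 1 of Csf3r and 0 of Cxcr2 and Ly6g between them, and 2 of the 4 lacked any UMI of the first 3 genes. Trem1, outside the rule, was at 895 and 921 CPM in IMQ, 461 and 926 in IMQ+SHP099, and 378 and 253 in Sham. Mmp9, also outside it, was at 903 and 1208 CPM in IMQ, 108 and 796 in IMQ+SHP099, and 0 and 1265 in Sham. By Ly6g, the label held for both IMQ libraries and IMQ+SHP099 replicate 2. It was not borne out in IMQ+SHP099 replicate 1, where a count of 0 allows up to 81.3 CPM, under both IMQ values. In Sham replicate 1 a count of 0 allows up to 567 CPM, so Ly6g cannot decide there. In Sham replicate 2 the label rested on 1 UMI of Ly6g.

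The same genes were counted in cells that should lack them. In cells above the collagen limit, which should lack Retnlg, a Retnlg UMI was found in 0% in both Sham libraries and IMQ+SHP099 replicate 1, in 0.909% and 4.39% in IMQ and in 0.793% in IMQ+SHP099 replicate 2. Those collagen cells had median depths of 5274 to 9573.5 UMIs, above the depth of the neutrophils. They held 0.0143 to 8.49 UMIs per 10000 over S100a8 and S100a9, below the limit of 50 used by the rule. The receptor clause alone was less selective, since 1.16% to 3.77% of collagen cells held at least 3 UMIs over Retnlg, G0s2, Cxcr2 and Csf3r, with 1.85% and 1.44% in Sham. Of the cytokine genes described below, Il1b was found in 0.756% to 2.49% and Cxcl2 in 5.18% to 13.9% of collagen cells. At the border of the rule, 0, 2, 7, 7, 2 and 1 neutrophils held exactly 3 receptor UMIs in Sham, IMQ and IMQ+SHP099 replicates 1 and 2 in turn. In the same order, 1, 0, 9, 12, 1 and 7 cells met all other conditions with 2 such UMIs, and were left out.

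The gate genes themselves varied between libraries. S100a8, which with S100a9 encodes calprotectin, was at 15131 and 18134 CPM in Sham, 106380 and 130410 in IMQ, against 36872 and 125360 in IMQ+SHP099. Retnlg was at 567 and 1096 CPM in Sham, 20652 and 22284 in IMQ, against 1789 and 21209 in IMQ+SHP099. Csf3r, the receptor of the growth factor G-CSF, was at 189 and 2952 CPM in Sham, 548 and 725 in IMQ, against 461 and 1045 in IMQ+SHP099. IMQ+SHP099 replicate 2 resembled the IMQ libraries in these genes, whereas replicate 1, with 11 cells and 36884 UMIs in all, lay nearer the Sham cells for Retnlg and S100a8.

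Next, the genes most concentrated in neutrophils were ranked by the ratio of their CPM in neutrophils to that in all other kept cells, in the lower of the IMQ libraries. Of 529 genes with at least 200 CPM in both IMQ libraries, the 25 with the largest ratio ran from 503 for Retnlg to 84.5 for Cd300lf. Only 4 of the 25 were gate genes. They were led, after Retnlg, by Ly6g (480), the receptor gene Mrgpra2b (438), the stefin gene Stfa2l1 (411), and the granule genes Ngp (402) and Ltf (340). The neutrophil surface gene Cd177 (227), Camp (207), the formyl peptide receptor Fpr1 (201), the interferon-inducible Slfn4 (177) and the gelatinase Mmp9 (149) came next among genes of known role. Trem1 (148), an amplifier of innate signals, Pglyrp1 (145), a granule peptidoglycan-binding protein, Acod1 (143), which makes itaconate, Wfdc21 (127), Wfdc17 (102) and the C5a receptor C5ar1 (94.7) followed. The remaining 8 were Gm5483, Csf3r, Ifitm6, G0s2, Cxcr2, Slfn1, AA467197 and Cd300lf. Of the 25, 22 also stood in one of the gene lists used here.

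Although neutrophils were at most 3.21% of cells, they held most of the transcripts of several genes in treated skin. Of all Retnlg UMIs in kept cells, they held 93.8% and 88.3% in IMQ, against 100% and 93.3% in IMQ+SHP099. Of Csf3r they held 55.3% and 72.6% in IMQ, against 26.98% and 64.0% in IMQ+SHP099. For the cytokine gene Il1b, the share was 33.8% and 50.6% in IMQ, 4.28% and 40.2% in IMQ+SHP099, and 2.24% and 1.27% in Sham. For Cxcl2, it was 24.3% and 42.6% in IMQ, 2.005% and 29.0% in IMQ+SHP099, and 10.7% and 1.26% in Sham. The Il1b value of IMQ+SHP099 replicate 2 lay between those of the IMQ libraries, and that of replicate 1 far under them.

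Other transcripts often assigned to neutrophils came mainly from other cells. Of S100a8 UMIs, neutrophils held 10.9% and 36.4% in IMQ, against 0.0599% and 12.8% in IMQ+SHP099, while cells above the keratin limit held 86.4% and 56.1% in IMQ, against 99.4% and 82.4% in IMQ+SHP099. Of Lcn2 UMIs, lipocalin 2 being an iron-scavenging granule protein that keratinocytes make too, neutrophils held 7.43% and 17.1% in IMQ, against 0.0799% and 6.62% in IMQ+SHP099. Il1r2, which encodes the decoy receptor of IL-1 and is a usual neutrophil gene, had 7.07% and 7.98% of its UMIs in neutrophils in IMQ, and 46.4% to 62.3% of collagen cells carried an Il1r2 UMI. Stfa3 had at most 0.618% of its UMIs in neutrophils in any library. For Tnf, the share was 10.8% and 19.7% in IMQ, 0.547% and 7.41% in IMQ+SHP099.

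**Figure D2:**
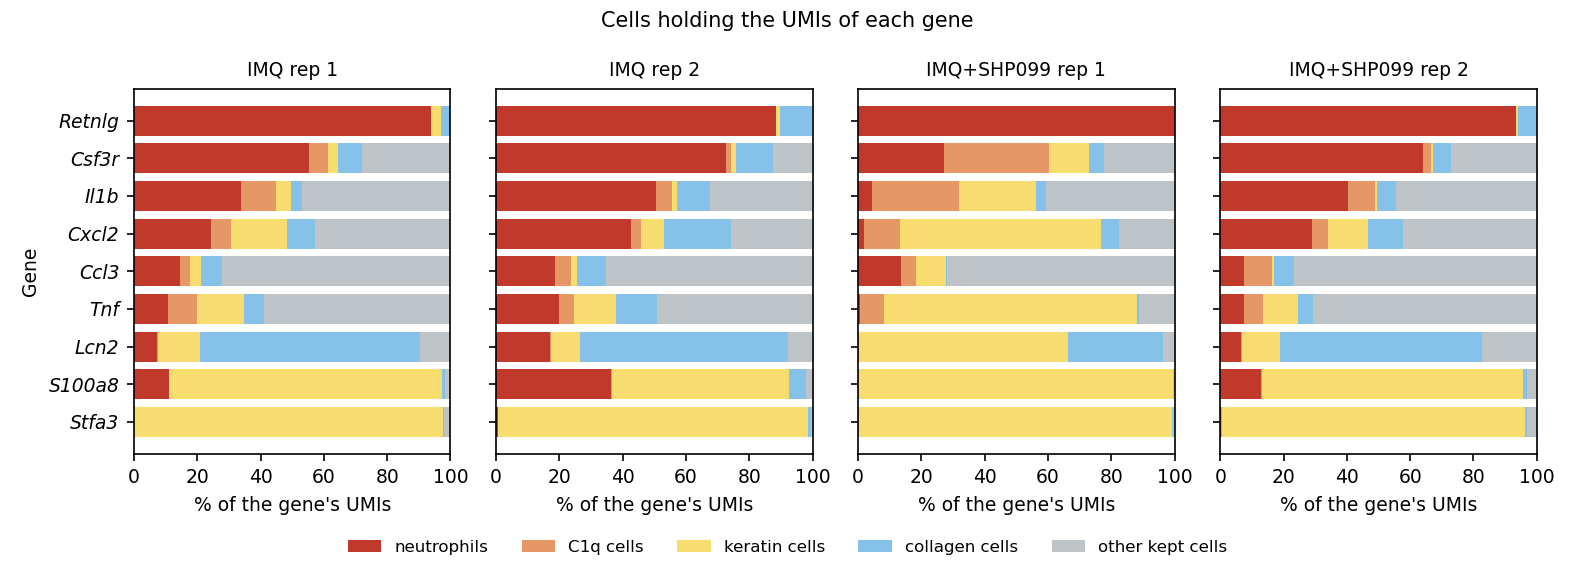
Percent of each gene's UMIs that lay in neutrophils and in the other classes of kept cells, for the 4 treated libraries; bars stack to 100%. Retnlg lies almost wholly in neutrophils (88.3% to 100%), Il1b in part (4.28% to 50.6%), and S100a8 mostly in cells above the keratin limit (56.1% to 99.4%).

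The promoters of genes of the 2 main programs described here, granule genes and cytokine genes, were read from RefSeq. Ngp and Ltf are leading genes of a sub-cluster described below, whereas Mmp8 and Cxcl2 are not among the 10 leading genes of any. Each promoter printed holds a motif match, so they are examples only. For each gene the stretch runs from 250 bases before the RefSeq start up to that start, less any bases that the gene annotation already counts as part of the gene, 5′ to 3′ in the direction of transcription, on build GRCm38.p6. Capitals mark the letters TTGCNNAA, on either strand, a motif bound by C/EBP factors (in Ngp, Ltf and Mmp8), or matches to the κB consensus of NF-κB, 2 of which overlap by all but 1 base (in Cxcl2). The positions are chr9:110419558-110419746, chr9:111019042-111019270, chr9:7558179-7558428 and chr5:90903649-90903870, all on the plus strand.
Ngp: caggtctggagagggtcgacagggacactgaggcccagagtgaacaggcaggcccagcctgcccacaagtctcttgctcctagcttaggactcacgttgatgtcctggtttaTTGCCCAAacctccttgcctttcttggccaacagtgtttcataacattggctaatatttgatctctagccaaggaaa
Ltf: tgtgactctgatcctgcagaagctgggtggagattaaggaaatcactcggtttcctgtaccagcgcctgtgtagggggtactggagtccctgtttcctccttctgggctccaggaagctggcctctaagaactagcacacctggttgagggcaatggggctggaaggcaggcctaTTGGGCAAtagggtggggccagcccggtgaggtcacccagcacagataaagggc
Mmp8: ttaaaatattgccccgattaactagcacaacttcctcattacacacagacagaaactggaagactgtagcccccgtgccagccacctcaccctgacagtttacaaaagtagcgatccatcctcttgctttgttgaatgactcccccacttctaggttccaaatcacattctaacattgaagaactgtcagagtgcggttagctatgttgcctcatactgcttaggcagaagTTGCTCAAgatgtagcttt
Cxcl2: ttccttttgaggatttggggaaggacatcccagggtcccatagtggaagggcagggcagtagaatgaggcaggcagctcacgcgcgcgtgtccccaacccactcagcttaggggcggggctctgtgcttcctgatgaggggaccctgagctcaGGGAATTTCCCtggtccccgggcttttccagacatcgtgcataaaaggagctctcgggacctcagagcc

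In Ngp the printed match began 138 bases before the start, and a second match, 11 bases before it, fell in the part not printed. The match began 75 bases before the start in Ltf, 19 in Mmp8, and 97 and 96 in Cxcl2. Over the 250 bases before the start, the C/EBP motif was found in 6 of 13 secondary and tertiary granule promoters held by the table (46.2%: Lcn2, Slpi, Adam8, Mmp8, Ngp and Ltf) and in 1 of 26 cytokine and chemokine promoters (3.8%: Il6). All 27025 promoters held it at 9.6%. The κB consensus was found in 1 of 13 granule promoters (Pglyrp1), in 8 of 26 cytokine promoters (30.8%: Csf1, Il6, Cxcl1, Cxcl2, Cxcl3, Cxcl10, Ccl9 and Vegfa), and in 3.8% of all promoters. Il1b held neither. These are matches of letters in a short window, and binding was not measured.

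The 584 neutrophils of the treated libraries fell into 5 sub-clusters, described here by their leading genes. The genes that define a sub-cluster also formed it, so their levels were not tested. A sub-cluster led by Il23a, Bcl2a1b and Gadd45b held 206 cells, and Cxcl1, Il1a, Il1b, Tnf and Ccl3 were among its 10 leading genes. Il23a had only 83 UMIs in these 206 cells, so most of them held none, and the name marks its rank only. A sub-cluster led by Prok2, Retnlg and Ggt1 held 210 cells, with the interferon-inducible genes Rtp4 and Ifi27l2a among its 10 leading genes. A sub-cluster of 57 cells was led by the stefin A genes Stfa2, BC100530 and Stfa1, which encode inhibitors of cysteine proteases and are near copies of each other, so that reads may be split among them. A sub-cluster of 40 cells was led by Camp, Ltf and Ngp, and one of 71 cells by S100a4, Crip1 and Ms4a6c.

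The Camp, Ltf and Ngp sub-cluster was the richest in granule transcripts. Ngp was at 33947 CPM there, against 216 to 3652 in the 4 other sub-clusters, and Camp at 15919 against 23.0 to 1766. Lcn2 reached 23797 CPM, against 4970 to 10839 elsewhere. Cebpe, the transcription factor that switches on secondary granule genes, was at 111 CPM against 3.37 to 27.3. Its cells had a median of 9226 UMIs, against 3270 to 8242 in the others, and held the fewest cytokine transcripts, with Il1b at 301 CPM against 2391 to 9368. The primary granule gene Mpo was at 0 in all 5 sub-clusters and Elane at 0 to 12.8 CPM, and of the proliferation genes Mki67 was at 29.9 CPM in this sub-cluster, from 11 UMIs.

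By contrast, the Il23a sub-cluster held Il1b at 9368 CPM, Cxcl2 at 30201, Ccl3 at 2472 and Tnf at 913, and Ngp at 216. In the Prok2 sub-cluster, Il1b was at 3125 CPM, Cxcl2 at 13933, Ccl3 at 582 and Tnf at 146, while Retnlg was at 32596, the highest of the 5. Csf3r was at 1164 CPM in the Il23a sub-cluster, 821 in the Prok2 sub-cluster and 168 in the Camp sub-cluster. The stefin sub-cluster held both kinds, with Ngp at 4098 and 1190 CPM and Il1b at 6992 and 4701 CPM in the IMQ replicates.

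The S100a4 sub-cluster went in part against the label. It held S100a4 at 2165 CPM against 15.5 in the other neutrophils, the monocyte receptor gene Ccr2 at 276 against 0, fibronectin (Fn1) at 609 against 3.54 and Lyz2 at 10753. Retnlg was at 5338 CPM and Ly6g was found in 32.4% of its cells, against 53.9% to 80.0% in the others. Its median mitochondrial share was 1.67%, against 0.463% to 0.646%. Of its 10 leading genes, Krt1 and Krt10 came almost wholly from 1 cell described below. The same 71 cells formed 1 cluster at both other resolutions tried. It was given no cell type name, and several medians of gene lists are given below with and without it.

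**Figure D3:**
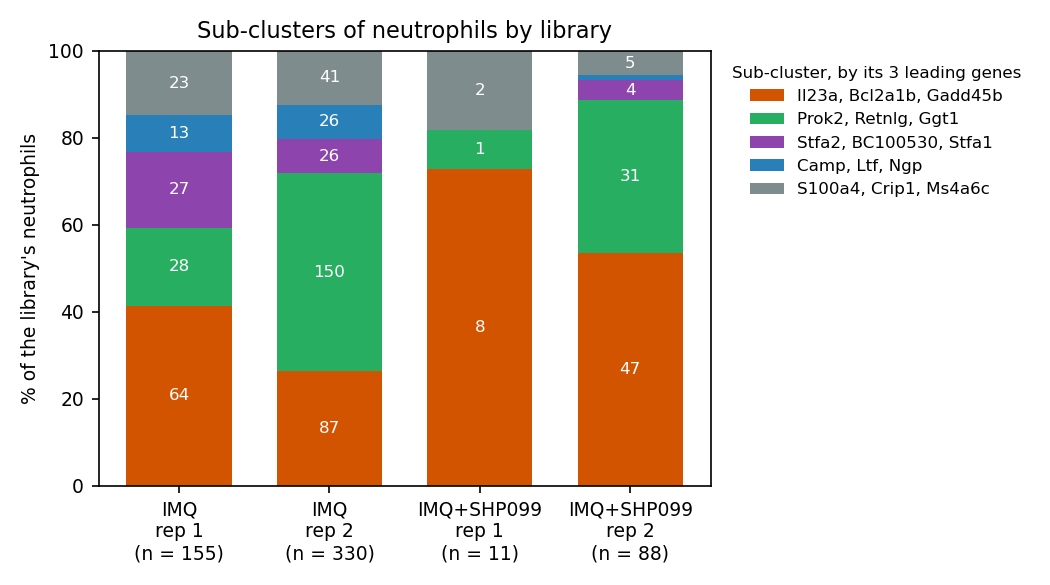
Makeup of the neutrophils of each treated library by sub-cluster, named by 3 leading genes (percent of the library's neutrophils, stacked to 100%; n is the number of neutrophils). The Camp, Ltf and Ngp sub-cluster holds 8.39% and 7.88% of IMQ neutrophils, and in the IMQ+SHP099 libraries 0% and 1.14%.

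The makeup by sub-cluster varied between replicates. The Il23a sub-cluster held 64 of 155 and 87 of 330 neutrophils in IMQ (41.3% and 26.4%), and 8 of 11 and 47 of 88 in IMQ+SHP099 (72.7% and 53.4%). The Prok2 sub-cluster held 18.1% and 45.5% in IMQ, against 9.09% and 35.2% in IMQ+SHP099, and these ranges overlap. The Camp sub-cluster held 13 and 26 cells in IMQ (8.39% and 7.88%), and 0 of 11 and 1 of 88 in IMQ+SHP099 (0% and 1.14%). With 11 cells, a count of 0 allows a share of up to 27.3%, so that replicate 1 cannot show whether such cells were fewer there. The stefin sub-cluster held 17.4% and 7.88% in IMQ, against 0% and 4.55% in IMQ+SHP099, and the S100a4 sub-cluster 14.8% and 12.4% in IMQ, against 18.2% and 5.68% in IMQ+SHP099. Because the genes that define the sub-clusters also varied between the groups, these shares are given as a description, with no test.

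Cell by cell, cytokine transcripts were found in nearly all neutrophils of the IMQ libraries, with or without granule transcripts. Summed over Camp, Ltf and Ngp, no UMI was found in 78 of 155 and 138 of 330 neutrophils in IMQ, in 10 of 11 and 58 of 88 in IMQ+SHP099, and in 4 of 4 and 9 of 9 in Sham. Of the 77 and 192 IMQ neutrophils with such a UMI, 77 and 191 also held a UMI of Il1b, Cxcl2, Cxcl3, Ccl3 or Tnf, as did the 1 and 30 in IMQ+SHP099. Cells without a UMI of these cytokine genes numbered 0 of 155 and 1 of 330 in IMQ, and 2 of 11 and 0 of 88 in IMQ+SHP099. The counts of cells with both kinds thus repeat the share over all cells and show no link between the kinds. Summed over Il1b, Cxcl2, Cxcl3, Ccl3 and Tnf, the median was 303 and 151 UMIs per 10000 in IMQ, 1057 and 364 in IMQ+SHP099, and 1489 and 267 in Sham. Every cell of the Camp sub-cluster held granule transcripts, at a median of 323 and 481 UMIs per 10000 in IMQ, and its median cytokine level was 79.4 and 29.3. In the Il23a sub-cluster of the same libraries, the granule median was 0 and the cytokine median 391.8 and 294. The depth of a cell limits the count of cells without a UMI, and the IMQ+SHP099 and Sham neutrophils were shallower. With each cell thinned to 1000 UMIs, Ngp was found in 31.4% and 40.9% of IMQ neutrophils and in 0% and 20.7% of IMQ+SHP099 neutrophils, while Il1b was found in 86.9% and 75.1% and in 80% and 93.1%.

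**Figure D4:**
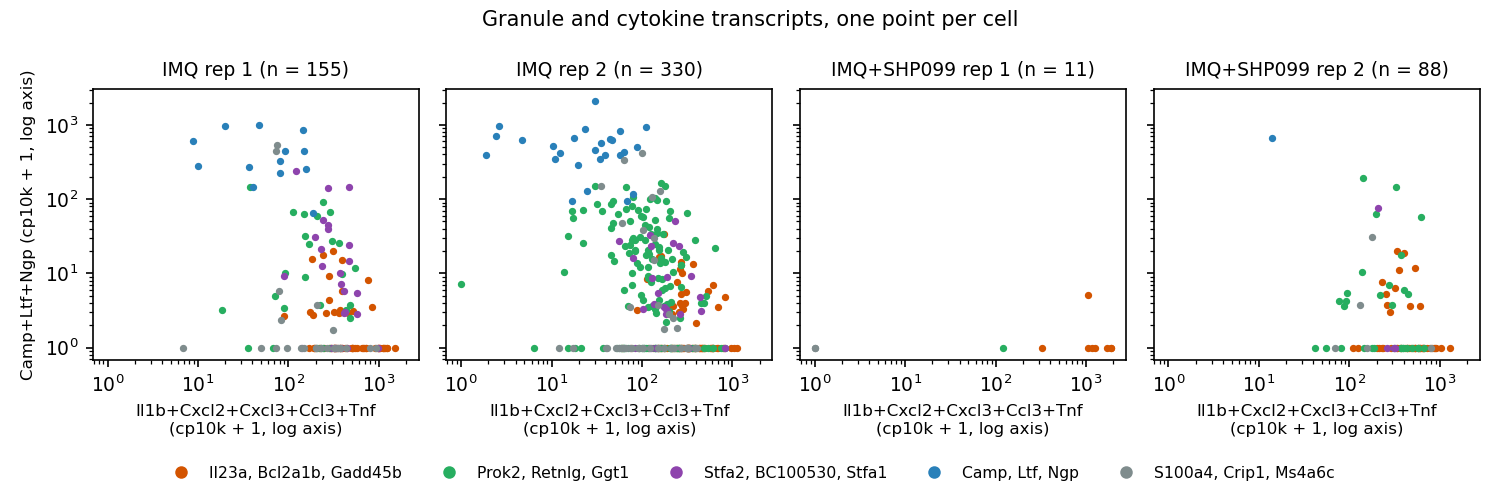
Each point is 1 neutrophil of a treated library: the summed level of Il1b, Cxcl2, Cxcl3, Ccl3 and Tnf (horizontal) against that of Camp, Ltf and Ngp (vertical), both as UMIs per 10000 plus 1 on log axes, coloured by sub-cluster. Cells of the Camp, Ltf and Ngp sub-cluster lie at high granule and low cytokine levels, and 10 of 11 and 58 of 88 cells in the IMQ+SHP099 libraries lie on the lower edge with no granule UMI.

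To ask whether neutrophils differed under SHP099, the UMIs of the neutrophils were summed by library and IMQ+SHP099 was compared with IMQ by edgeR's quasi-likelihood test. No gene of 3999 tested passed an adjusted p of 0.05 (0% called), and the smallest adjusted p was 0.999. At an unadjusted p under 0.05, 149 genes passed, 65 higher and 84 lower in IMQ+SHP099, which is 3.73% of those tested, and the median log2 fold change over all genes was -0.04. DESeq2 called 2 genes, Calm4 and Lgals7, both of the epidermis. The fit compares 2 libraries with 2, and replicate 1 of IMQ+SHP099 holds 11 cells. Left out, it gave 261 called genes, and without replicate 2 there were 506, each with an arm of 1 library, whose spread is assumed to be like that of the others. The values below are therefore given by library, and no direction among them passed the test.

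Most secondary and tertiary granule genes had lower values under SHP099, but none passed the test. All 17 were tested, 15 had a negative log2 fold change (as had 2119 of all 3999 genes), 0 passed the adjusted test and 1, the integrin gene Itgb2l, passed at an unadjusted level in the lower direction. Their median log2 fold change was -1.04, or -1.08 without the S100a4 sub-cluster, beside -0.04 over all genes. Ngp was at 8254 and 6064 CPM in IMQ, against 27.1 and 2922 in IMQ+SHP099, with no overlap between groups (log2 fold change -2.13 ± 1.35 SE, unadjusted p = 0.155 and adjusted p = 0.999 by edgeR). Ltf was at 789 and 842 CPM in IMQ, against 27.1 and 337 in IMQ+SHP099 (-1.86 ± 0.82, unadjusted p = 0.0556 by edgeR). Camp was at 3611 and 2156 CPM in IMQ, against 0 and 1579 in IMQ+SHP099. Lcn2 was at 11264 and 10078 CPM in IMQ, against 2142 and 7352 in IMQ+SHP099 (-1.14 ± 0.77). Mmp8 was at 1060 and 1010 CPM in IMQ, against 54.2 and 822 in IMQ+SHP099. These 5 genes are only part of the list of 17. How many of all genes had both IMQ+SHP099 libraries under both IMQ libraries, as these 5 did, was not counted. In each of the 5, replicate 1 of IMQ+SHP099 was by far the lowest. These sums take in 13 and 26 Camp sub-cluster cells in IMQ, against 0 and 1 in IMQ+SHP099. Within the Prok2 sub-cluster, IMQ+SHP099 replicate 1 held 1 cell. There Ngp was at 3111 and 2668 CPM in IMQ, against 2149 in replicate 2, and Lcn2 at 11691 and 10151 against 7998. Ltf was at 36.9 and 85.3 CPM against 254, and Camp at 103 and 200 against 218, so these 2 were not lower there. Leaving out 1 library moved the log2 fold change of Ngp between -8.70 (without IMQ+SHP099 replicate 2) and -1.18 (without replicate 1), that of Ltf between -5.58 and -1.17, and that of Lcn2 between -2.99 and -0.43. The 2 primary granule genes tested had a median of -0.98, or -1.37 without the S100a4 sub-cluster.

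In the Sham neutrophils, Ngp, Camp, Ltf and Mmp8 were at 0 UMIs. These cells hold 5287 and 11856 UMIs in all, so that by UMIs alone a count of 0 allows up to 567 and 253 CPM. By cells, a count of 0 among 4 and 9 allows a share of up to 75% and 33.3%. In IMQ, Ngp was at 34614 and 33437 CPM in the 13 and 26 cells of the Camp sub-cluster. Whether Sham neutrophils held less Ngp than IMQ neutrophils therefore cannot be told from so few cells. No test of IMQ against Sham was made across genes, since the Sham libraries held 4 and 9 neutrophils and 10 were required.

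**Figure D5:**
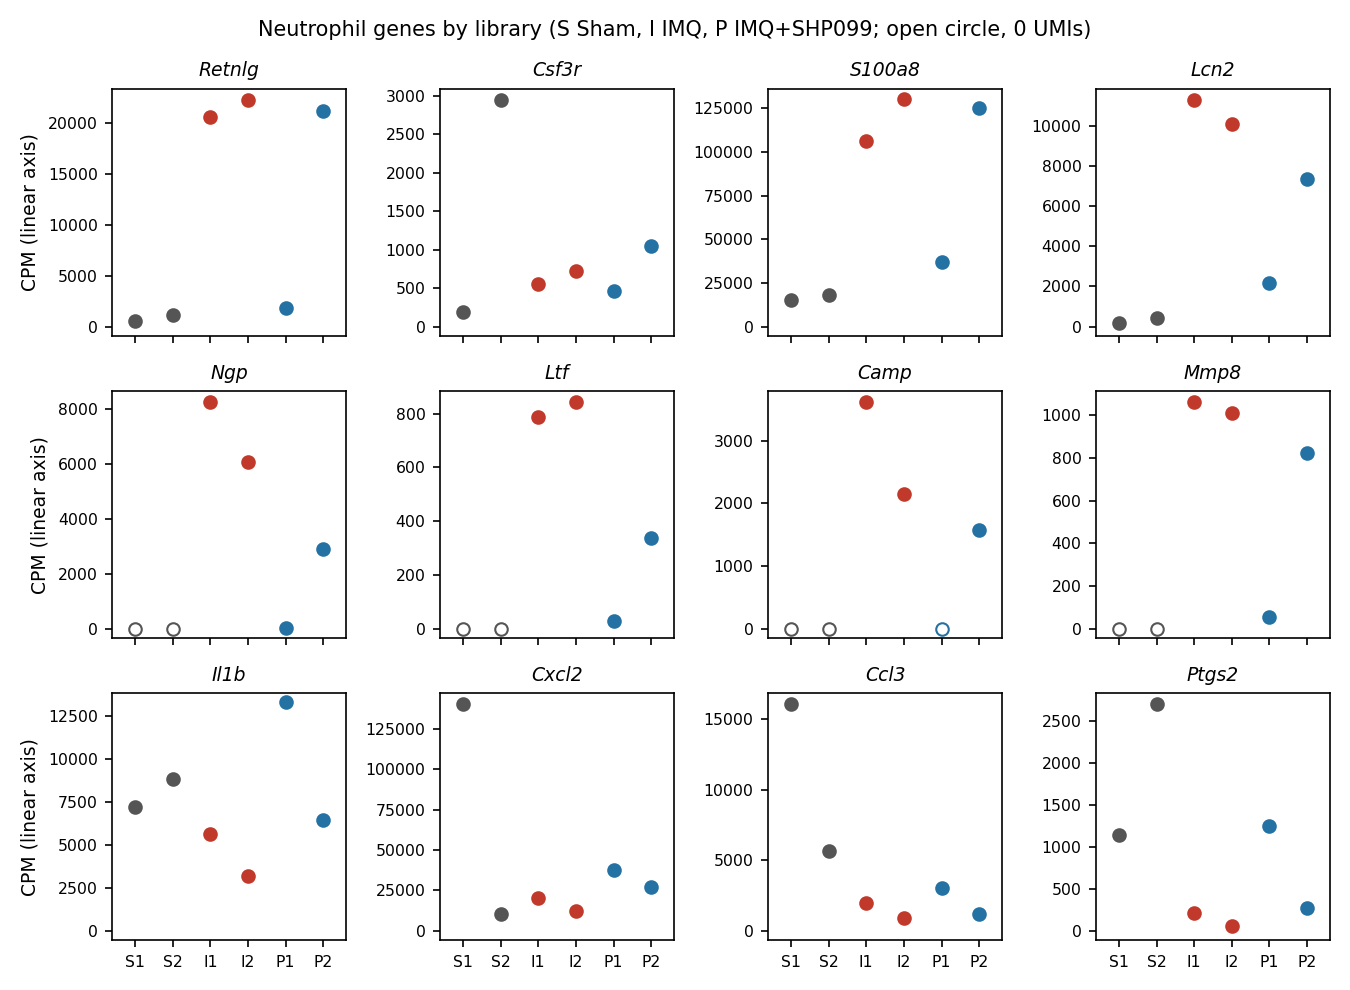
CPM of neutrophil genes in each library on linear axes that start at 0 (S, Sham; I, IMQ; P, IMQ+SHP099); an open circle is 0 UMIs, and each point sums all neutrophils of 1 library. The granule gene Ngp is at 8254 and 6064 in IMQ, 27.1 and 2922 in IMQ+SHP099 and 0 in Sham, while Il1b is at 5620 and 3207 in IMQ, against 13339 and 6437 in IMQ+SHP099.

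The cytokine and chemokine genes had values in both directions. Of 34, 20 were tested and 0 passed the adjusted test. An unadjusted p under 0.05 by edgeR was passed by 3 higher and 2 lower, beside 65 higher and 84 lower of all 3999 genes. The median log2 fold change was 0.28, or 0.55 without the S100a4 sub-cluster. Il1b was at 5620 and 3207 CPM in IMQ, against 13339 and 6437 in IMQ+SHP099 (0.98 ± 0.58, unadjusted p = 0.129 by edgeR), with 7187 and 8856 in Sham. Without the S100a4 sub-cluster, which held no Il1b UMI in IMQ+SHP099 replicate 1, Il1b was at 6080 and 3637 CPM in IMQ, against 28349 and 6828 in IMQ+SHP099. Cxcl2, a ligand of CXCR2 and so an attractant of neutrophils themselves, was at 20380 and 12334 CPM in IMQ, against 37333 and 27082 in IMQ+SHP099 (0.84 ± 0.59, unadjusted p = 0.195 by edgeR). In both genes the IMQ+SHP099 libraries lay above the IMQ libraries, and how many of all genes did so was not counted. Within the Il23a sub-cluster alone, Il1b was at 10356 and 7392 CPM in IMQ, against 28895 and 9587 in IMQ+SHP099, with overlap. Cxcl2 was there at 32665 and 23204 CPM in IMQ, against 81702 and 34895 in IMQ+SHP099, with no overlap. Replicate 1 of IMQ+SHP099 held 8 cells of that sub-cluster. Ccl3 was at 1994 and 901 CPM in IMQ, against 3036 and 1165 in IMQ+SHP099, and Tnf at 723 and 326 against 407 and 395, with overlap in both. Il1rn, which encodes the antagonist of IL-1, was at 133 and 84.4 CPM in IMQ, against 868 and 136 in IMQ+SHP099 (1.78, unadjusted p = 0.0420 by edgeR). Of its UMIs in IMQ+SHP099 replicate 1, 9 came from 1 cell rich in keratinocyte transcripts. The chemokine gene Ccl9 was at 84.1 and 82.6 CPM in IMQ, against 0 and 22.7 in IMQ+SHP099. Il23a, a subunit of IL-23, was at 66.3 and 9.44 CPM in IMQ, against 651 and 9.71 in IMQ+SHP099, so that its high value rests on replicate 1. Ptgs2, the cyclooxygenase that makes prostaglandin precursors, was at 207 and 55.5 CPM in IMQ, against 1247 and 275 in IMQ+SHP099 (2.22 ± 0.80, unadjusted p = 0.0259 by edgeR). Of its UMIs in IMQ+SHP099 replicate 1, 23 came from the same cell rich in keratinocyte transcripts.

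Among receptors, Cxcr2 was at 264 and 358 CPM in IMQ, against 325 and 320 in IMQ+SHP099, and Fpr1 at 355 and 359 against 407 and 353, nearly level between the groups. The leukotriene B4 receptor Ltb4r1 was at 259 and 237 CPM in IMQ, against 54.2 and 104 in IMQ+SHP099 (-1.44 ± 0.51, unadjusted p = 0.0241 by edgeR). Of 9 chemoattractant receptors tested, 6 were negative, with a median of -0.02 that was 0.03 without the S100a4 sub-cluster. The 20 adhesion and migration genes tested had 18 negative values and a median of -0.43. Of all 3999 genes tested, 2119 were negative. Ceacam10, of the CEA family of adhesion molecules, was at 153 and 136 CPM in IMQ, against 27.1 and 48.5 in IMQ+SHP099. The integrin gene Itgam (CD11b) was at 347 and 337 CPM in IMQ, against 136 and 214 in IMQ+SHP099. All 7 genes of the calprotectin list were negative, with a median of -0.72, but S100a8 and S100a9 were nearly level between IMQ and IMQ+SHP099 replicate 2 and low in replicate 1 only, without which their log2 fold changes were 0.19 and 0.14.

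The direct target of SHP099 was barely seen in neutrophils. Ptpn11 (chr5:121130533-121191397, GRCm38, minus strand) had 15 and 19 UMIs in the neutrophils of the IMQ replicates, 1 and 2 in IMQ+SHP099 and 0 in both Sham libraries, which is 17.8, 11.2, 27.1 and 6.47 CPM in the treated libraries. Neutrophils held 0.344% and 0.311% of all Ptpn11 UMIs in IMQ, against 0.0169% and 0.0792% in IMQ+SHP099. A difference in Ptpn11 was not detectable at this depth, and the level of a transcript does not report inhibition of the enzyme. Ptpn6, which encodes the related phosphatase SHP1 of blood cells, was at 201 and 289 CPM in IMQ, against 27.1 and 262 in IMQ+SHP099. Tlr7, the sensor of IMQ, was at 10.7 and 2.95 CPM in IMQ, against 0 and 29.1 in IMQ+SHP099 and was too low to test. Of 18 SHP2 and SHP1 signalling genes tested, 7 were positive and 11 negative, with a median of -0.09.

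SHP2 acts upstream of ERK, and the genes that ERK induces were therefore listed. Of 10 ERK feedback genes tested, 9 were positive under SHP099 (as were 1880 of all 3999 genes), with a median of 0.57, and 0 passed an unadjusted p. Egr1 was at 204 and 185 CPM in IMQ, against 1112 and 240 in IMQ+SHP099 (1.45 ± 0.63, unadjusted p = 0.0509 by edgeR), Fos at 1252 and 997 against 3742 and 1434, and Dusp1, a phosphatase of MAP kinases, at 2014 and 1544 against 3633 and 3000. These genes are also induced by tissue dissociation. The dissociation and stress list, which shares Fos, Egr1, Ier2 and Ier3 with the ERK list, had 14 positive values of 17 and a median of 0.43 (0.72 without the S100a4 sub-cluster), and its summed level was 13565 and 11078 CPM in IMQ, 24347 and 16378 in IMQ+SHP099, and 30263 and 50523 in Sham. The part of dissociation in these values was not tested.

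Values of other regulatory and metabolic lists lay on either side of the median of all genes, of which 1880 of 3999 tested were positive. The transcription factors had 22 positive values of 27 and a median of 0.35, with Cebpb level at 6078 and 5642 CPM in IMQ against 5721 and 6844 in IMQ+SHP099. NF-κB feedback genes had 15 positive of 19 and a median of 0.22. Nfkbia, the inhibitor that NF-κB itself induces, was at 4068 and 2442 CPM in IMQ, against 11170 and 3530 in IMQ+SHP099. Interferon-stimulated genes had a median of 0.34 with 18 positive of 25, and Isg15 was at 149 and 417 CPM in IMQ, against 298 and 537 in IMQ+SHP099. Glycolysis and hypoxia genes had a median of -0.19, which was -0.57 without the S100a4 sub-cluster. Stefin A genes had a median of 0.49, which turned to -0.27 without it. Of 7 proliferation genes tested, Mki67 and Birc5 passed an unadjusted p of edgeR in the higher direction, as did 65 of all 3999 genes. The proliferation list summed to 1064.5 and 1004 CPM in IMQ, against 1328.5 and 1129 in IMQ+SHP099. Without the S100a4 sub-cluster the sums were 1091 and 952 CPM in IMQ, against 691 and 1199 in IMQ+SHP099, with overlap.

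Further lists covered what neutrophils sense and how they kill. The 28 neutrophil markers outside the rule had 10 positive and 18 negative values and a median of -0.10, beside -0.25 for the 6 gate genes (-0.43 without the S100a4 sub-cluster). In this list Srgn, the core protein of granule proteoglycans, was at 4753 and 4024 CPM in IMQ against 4528 and 4411 in IMQ+SHP099, and Ifitm6 at 2698 and 2326 against 434 and 1039 (unadjusted p = 0.0296 by edgeR). Growth factor and cytokine receptors had a median of 0.05 over 19 tested (0.14 without that sub-cluster), and pattern recognition genes one of 0.08 over 18. Among the latter the LPS co-receptor Cd14 was at 3346 and 2036 CPM in IMQ against 2413 and 2437 in IMQ+SHP099. The 7 NADPH oxidase genes tested, whose products make the oxidative burst, had a median of -0.43, with Cyba at 1822 and 1704 CPM in IMQ against 1112 and 1311 in IMQ+SHP099. Fc and complement receptors had a median of -0.30 over 15 tested (-0.16 without that sub-cluster), survival and death genes 0.04 over 17, and genes of ageing neutrophils 0.00 over 8. Lipid mediator genes had a median of -0.24 over 10 tested, with Alox5ap, the activating protein of leukotriene synthesis, at 3385 and 2523 CPM in IMQ, against 1139 and 1903 in IMQ+SHP099. Genes of extracellular traps and proteases had a median of -0.24 over 12, and MHC class II genes, of which 1 was tested, summed to 54.2 to 172 CPM in the treated libraries. None of these lists held a gene that passed the adjusted test.

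Ranked by unadjusted p among genes with a mean of at least 50 CPM, the 5 with the smallest p in the higher direction were Gm12840, Cpeb2, H2-Q6, H2-Q7 and Gm20186. In IMQ+SHP099 replicate 1, the 2 cells of the S100a4 sub-cluster held 9 UMIs of Gm12840, 6 of Cpeb2 and 5 of Gm20186. The 8 cells of the Il23a sub-cluster held 3, 0 and 3 there. In other kept cells, Gm12840 was at 34.3 to 312 CPM by library. H2-Q6 was at 63.9 and 64.3 CPM in IMQ, against 136 and 236 in IMQ+SHP099 (log2 fold change 1.67), and H2-Q7 at 68.7 and 69.0 against 163 and 217 (1.52). Both are non-classical MHC class I genes that are near copies of each other, so their reads cannot be told apart with certainty. Without IMQ+SHP099 replicate 2 the log2 fold changes of H2-Q6 and H2-Q7 were 0.40 and 0.56, and without replicate 1 they were 1.98 and 1.76. Within the Il23a sub-cluster alone, H2-Q6 was at 109 and 103 CPM in IMQ, against 297 and 339 in IMQ+SHP099. These values rest on 26, 31, 5 and 47 UMIs in turn, and the 5 came from 8 cells. In the 4 and 9 Sham neutrophils, H2-Q6 was at 567 and 422 CPM. The 5 in the lower direction were Acta2, Tagln, Saa3, Aldh2 and Clec5a. Saa3, an acute-phase gene, was at 991 and 397 CPM in IMQ, against 136 and 133 in IMQ+SHP099 (-2.40), and in the other cells at 7257 and 4858 against 2468 and 4436. Aldh2 was at 348 and 317 CPM against 54.2 and 107, and Clec5a, a myeloid lectin receptor, at 118 and 88.5 against 54.2 and 25.9. Acta2 and Tagln are genes of smooth muscle and myofibroblasts. Acta2 was at 150 and 175 CPM in IMQ, against 0 and 29.1 in IMQ+SHP099, while it was at 1774 and 2528 CPM in the other cells of the IMQ libraries and at 169 and 2402 in those of IMQ+SHP099. In the S100a4 sub-cluster of IMQ it was at 603 and 579 CPM. The part of RNA from other cells in these values was not tested.

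Markers of other cell types were counted over their whole lists. The 19 keratinocyte genes summed to 552 and 374 CPM in IMQ and to 43352 and 214 in IMQ+SHP099, with 2081 and 1265 in Sham. An unadjusted p under 0.05 by edgeR in the higher direction was passed by 5 of the 10 tested, and by 65 of all 3999 genes. The median log2 fold change of the list was 3.49. This value rests on a single cell of IMQ+SHP099 replicate 1, which held 13195 UMIs, 1552 of them (11.8%) from keratinocyte genes, with 304 of Krt10 and 446 of Lgals7. It met the rule by 3 UMIs of Cxcr2 alone and held no Il1b or Cxcl2. Another cell of that library, with 6334 UMIs, held 119 of Lyz2 and no Il1b, and the 9 remaining cells held 501 to 4816 UMIs and 5 to 207 of Il1b. Without the S100a4 sub-cluster, to which both large cells belong, the keratinocyte sum of that library was 2247 CPM and the median of the list -0.29. Macrophage and monocyte genes summed to 1917 and 2566 CPM in IMQ, 1383 and 2052 in IMQ+SHP099 and 757 and 675 in Sham, with a median of -1.14 that moved to -0.12 without that sub-cluster. Fibroblast genes summed to 374 and 474 CPM in IMQ, against 163 and 246 in IMQ+SHP099. Genes of T and NK cells summed to 0 to 81.3 CPM over the 6 libraries, with 4 to 13 of 13 at 0, of mast cells and basophils to 0 to 34.2, of eosinophils to 0 to 81.3, of endothelium to 0 to 19.4 of dendritic and Langerhans cells to 0 to 54.2, and of erythroid cells and platelets to 0 to 58.2. B cell genes summed to 0 to 253, the highest in Sham replicate 2.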

How the data were processed

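Single-cell 3′ RNA sequencing was made from enzymatically dissociated dorsal skin, and the values are UMI counts per gene and barcode, deposited by the authors as 1 matrix per library, with no normalization. Per the labels, Cell Ranger was used with GRCm38 (mm10). From these counts, 31053 genes were read, and members were chosen by the marker rule given above. The rule, the members and the gene lists were chosen with earlier results of these data known, so no list is independent support.

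UMIs were summed over the neutrophils of each library (5287 to 1694562 UMIs). CPM are UMIs per 1000000 neutrophil UMIs of a library. They were not divided by transcript length, since each 3′ transcript is counted at its end. IMQ+SHP099 was compared with IMQ by edgeR 4.0.16 in R 4.3.3 (TMM, filterByExpr, quasi-likelihood test, Benjamini-Hochberg adjustment over all genes tested), checked on simulated counts. DESeq2 1.42.0 was an alternative. Shares were compared by exact permutation over libraries. A p-value measures only the spread between these libraries, each a pool of animals, and nothing in the labels ties equal replicate numbers together. Their replicate differences correlated at 0.0978 over 3999 genes. Treated neutrophils were clustered in Python 3.11.15 with scanpy 1.11.5 (2000 variable genes, 20 principal components, 15 neighbours, Leiden resolution 0.5).

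Doublets were not removed. Scrublet, as built into scanpy, called 0, 0, 0, 7, 0 and 1 of the neutrophils in Sham, IMQ and IMQ+SHP099 replicates 1 and 2 in turn, but its automatic limit called no cell at all in the 3 replicate 1 libraries and so did not work there. Named genes were the gate and marker genes; the highest members of each list by CPM in IMQ with Ptpn11, Ptpn6 and Tlr7; the 5 genes in each direction with the smallest unadjusted p at a mean of at least 50 CPM, because none was called; and the 25 genes with the largest ratio over other cells at 200 CPM or more. Other list members were named after their values were seen. Gene coordinates are from GENCODE on GRCm38, and promoters from RefSeq on GRCm38.p6. The values of 1 listed gene are not reported here.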

Additional observations from a re-analysis of the deposited data

Results flagged for a closer look

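In IMQ replicate 2, 5 of the 453 barcodes removed by the limits on UMIs, detected genes and mitochondrial share met the marker rule for neutrophils. No removed barcode did so in the 5 other libraries. These 5 barcodes enter no comparison above.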

How the results depend on the processing

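The differences in the share of neutrophils kept their direction in all 57 values recomputed under the alternatives, over the 3 comparisons. The percent of a gene's UMIs held by neutrophils was less stable: 46 of 144 recomputed values moved by more than their counting interval, and without the S100a4 sub-cluster the Il1b value was 28.7% and 44.1% in IMQ and 38.7% in IMQ+SHP099 replicate 2. Leaving out 1 library gave 1.94 to 3.13 percentage points for IMQ against Sham, -2.55 to -1.36 for IMQ+SHP099 against IMQ, and 0.0486 to 1.11 for IMQ+SHP099 against Sham. The count of called genes was less stable. It was 0 in the reported fit, 2 by DESeq2 and 98 of 13142 genes with no filter on low counts (89 higher, 9 lower, with a median log2 fold change of -0.62). It was 20 with at least 5 UMIs of the receptor genes per cell (14 higher, among them H2-Q6, Ptgs2 and Il1rn, and 6 lower, among them Ngp and Saa3), and 4 without the S100a4 sub-cluster (H2-Q6, Ptgs2, Itgb7 and Hist1h2ap, all higher). Leaving out 1 library gave 0 to 506 calls. Without IMQ+SHP099 replicate 1 there were 261 (134 higher, 127 lower) and without replicate 2 there were 506 (178 higher, 328 lower), while leaving out either IMQ library gave 0. In these fits, 1 arm holds a single library. The cause of these differences was not tested.

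Of 349 log2 fold changes under an alternative, 285 kept their direction and call, 58 kept their direction and became called, and 6 turned. Tagln turned to 0.020 without the S100a4 sub-cluster. S100a8 turned to 0.19 and S100a9 to 0.14 without IMQ+SHP099 replicate 1, and were at -2.36 and -1.96 without replicate 2. Lgals7, at 5.95 without replicate 2, turned to -0.77 without replicate 1, to -0.20 with at least 5 receptor UMIs and to -0.14 without the S100a4 sub-cluster. With a replicate block, 0 genes were called (103 at an unadjusted p under 0.05), and the share differences stayed at 2.54, -1.95 and 0.581 points with an exact p of 0.5; the block changed no call. The alternatives without the S100a4 sub-cluster, with a Scrublet score limit and without TMM were chosen after seeing the data. Depth limits the Sham libraries and IMQ+SHP099 replicate 1 most, where a count of 0 allows 567, 253 and 81.3 CPM.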
